A study of Mus musculus with 15 samples.

Results

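A set of contractile genes of smooth muscle and of myofibroblasts, Acta2, Actg2, Cnn1, Cnn2, Tagln and Myh11, were followed in mouse hearts that lack MAT1 in heart muscle cells. They were chosen by symbol: each is the single gene that the platform annotation gives to 1 probe set, which makes 6 of the 12422 probe sets of the array and 6 of the 8251 genes with such a probe set. All 6 genes passed the filter on dim genes and were among the 4950 genes tested. The study compared 4 groups of whole-heart RNA on one-colour arrays. Knockout hearts (αMHC-Cre+/0; MAT1F/F, called CKO in the labels) came from 5 samples at 4 weeks and 4 samples at 2 weeks of age. Control hearts (αMHC-Cre+/0; MAT1F/+) came from 3 samples at 4 weeks and 3 at 2 weeks. All 4 groups therefore carry the same Cre recombinase, and the control littermates keep 1 wild-type allele of the MAT1 gene. A promoter of heart muscle cells, that of alpha-myosin heavy chain, drives the Cre. By that design smooth muscle cells and fibroblasts, which are known sources of such transcripts, are not the targeted cells. Which cells carried the 6 transcripts in these hearts of 2 and 4 weeks was not tested.

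Smooth muscle contracts through actin and myosin filaments that are regulated from the thick filament. Acta2 encodes smooth muscle alpha-actin, which is also the usual marker of a fibroblast that has become a contractile myofibroblast, and which immature heart muscle cells express as well. Actg2 encodes smooth muscle gamma-actin, typical of gut and other visceral muscle. Cnn1 and Cnn2 encode calponins, which bind actin and slow the myosin ATPase. Cnn1 is largely restricted to smooth muscle and Cnn2 is found in many cell types. Tagln encodes transgelin (SM22-alpha), an actin-binding protein of smooth muscle and myofibroblasts. Myh11 encodes the smooth muscle myosin heavy chain and is the most restricted marker of the differentiated smooth muscle cell. Many genes of this class are known targets of serum response factor, which binds a short element called the CArG box, together with myocardin-family coactivators, and of TGF-beta signalling.

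The promoters of Acta2, Cnn1 and Cnn2, the members for which a window was found, are shown because this class is known for its CArG boxes. They are also the members called higher at 4 weeks in the test described further on, so no window of an uncalled member is there to compare. The windows are RefSeq sequences of build GRCm38.p6 and run from 250 bases before to 50 bases after the annotated start, 5′ to 3′ on the gene's own strand. They lie at chr19:34255324-34255623 (minus strand, Acta2), chr9:22099003-22099302 (plus strand, Cnn1) and chr10:79988350-79988649 (plus strand, Cnn2). A window was matched for these 3 of the 6 genes, and not for Actg2, Tagln and Myh11. Capitals mark a CArG box, in which at most 1 of the 6 bases of the A/T core was allowed to be G or C, or the MCAT core CATTCC on either strand.
Acta2: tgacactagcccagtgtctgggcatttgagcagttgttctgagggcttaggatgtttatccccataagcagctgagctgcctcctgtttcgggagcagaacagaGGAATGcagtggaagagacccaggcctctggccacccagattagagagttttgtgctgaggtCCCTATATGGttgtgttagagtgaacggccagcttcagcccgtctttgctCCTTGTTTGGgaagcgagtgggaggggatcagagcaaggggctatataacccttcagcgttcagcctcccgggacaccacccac
Cnn1: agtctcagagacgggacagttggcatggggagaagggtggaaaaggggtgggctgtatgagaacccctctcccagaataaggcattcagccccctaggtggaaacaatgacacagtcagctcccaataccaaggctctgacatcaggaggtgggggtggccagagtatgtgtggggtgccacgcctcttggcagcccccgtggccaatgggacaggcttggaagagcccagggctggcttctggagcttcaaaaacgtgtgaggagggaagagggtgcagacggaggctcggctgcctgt
Cnn2: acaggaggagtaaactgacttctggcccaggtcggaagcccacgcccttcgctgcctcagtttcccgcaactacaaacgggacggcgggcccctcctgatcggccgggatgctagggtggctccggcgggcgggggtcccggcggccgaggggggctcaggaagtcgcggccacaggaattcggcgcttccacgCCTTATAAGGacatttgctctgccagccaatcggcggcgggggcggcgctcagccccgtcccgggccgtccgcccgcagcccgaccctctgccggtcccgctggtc

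The Acta2 window held 2 CArG boxes, CCCTATATGG starting at position -84 and CCTTGTTTGG at -34, each with 1 G or C in its core, and 1 MCAT core, which starts at -146 and reads on the minus strand. The Cnn2 window held 1 box with an undisturbed A/T core, CCTTATAAGG at -56. The Cnn1 window held no match to either motif, which says only that these letters are not in this window. Of all 32851 windows of the same length in the table, 9.98% held a CArG box by this looser definition, 1.63% one with an undisturbed core, and 14.7% the MCAT core. The CArG pattern reads the same on both strands, and no match overlapped a match to the other motif. Base composition differed between the 3 windows. The Cnn2 window was 70.7% G or C with 33 CpG dinucleotides, against 54.7% and 6 CpG for Acta2 and 59.3% and 6 CpG for Cnn1, where the median window had 52.7% and 7.

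**Figure D1:**
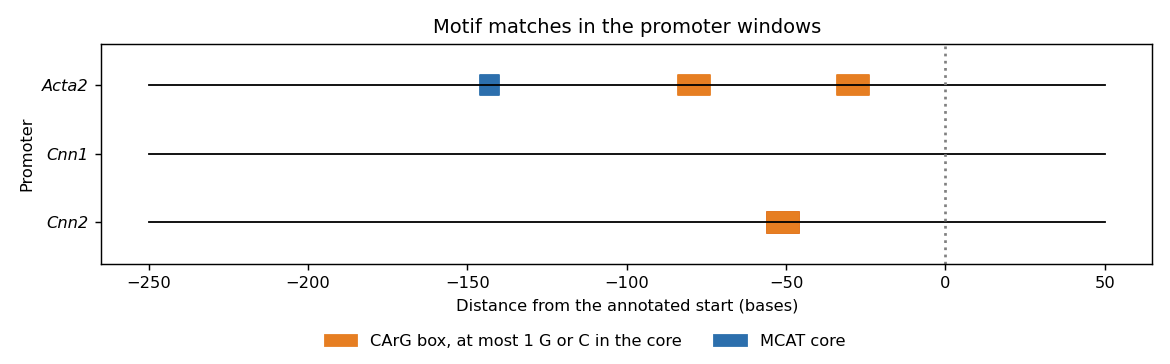
Positions of motif matches in the promoter windows of Acta2, Cnn1 and Cnn2, in bases from the annotated start (dotted line). Orange boxes are CArG boxes with at most 1 G or C in the core and the blue box is the MCAT core: Acta2 has both kinds, Cnn2 has 1 CArG box at -56 and Cnn1 has none.

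Each value is the intensity of a probe set on a linear scale, as deposited, and the array medians ran from 173.7 to 216.8. Intensities of different probe sets are not comparable as levels, so each gene is compared only with itself. Correlated over all probe sets, the arrays formed 2 sets that no label mentions. Set 1 held 2 knockout and 1 control array at each age. Set 2 held 3 knockout and 2 control arrays at 4 weeks and 2 and 2 at 2 weeks. Because these sets stand apart, the results below are also given blocked by array set (set as an added term in the fit) and for each set alone. Within set 1 the spread comes from the knockout arrays alone, so its p-values hold no spread among controls. Xist against Uty marked 4 of the 5 knockout and 1 of the 3 control samples at 4 weeks as female, and 1 of 4 knockout and 1 of 3 control samples at 2 weeks. At 4 weeks all arrays of set 1 were marked female, and the control arrays of set 2 male. Of the set 2 knockout arrays at 4 weeks, replicates 3 and 4 were marked female and replicate 5 male. Array set and inferred sex therefore go together among the controls of 4 weeks. The targeted gene, Mnat1, was read by 2 dim probe sets. At 4 weeks they read 140.7 to 314.3 and 38.9 to 78.3 in knockout hearts, and 86.0 to 243.8 and 40.1 to 79.2 in control hearts. At 2 weeks they read 73.1 to 296.3 and 23.7 to 52.03 in knockout hearts, and 87.9 to 255.0 and 41.4 to 86.3 in control hearts. The groups overlapped, and no source used here places these probes on the floxed gene, so Mnat1 checks no label and "knockout" is the label of the heart. Each group held samples of both inferred sexes, so no group came from a single mouse. The labels do not tell whether all samples of a group are separate mice, so part of the spread behind the p-values may be technical.

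At 4 weeks the smooth muscle actin and both calponins were higher in knockout hearts, while the smooth muscle myosin heavy chain was not. Acta2 rose 2.02-fold, Cnn1 2.73-fold and Cnn2 1.66-fold, and Myh11 stood at 0.82 of the control level without passing the test. Folds come from log2(intensity + 16), which understates changes of dim genes, and errors of log2 differences are standard errors of the limma fit. A gene is called when its Benjamini-Hochberg adjusted p over the 4950 genes is under 0.05. By this rule 3 of the 6 genes were called higher and none lower, against 6.59% of all tested genes called higher and 4.61% called lower. Blocked by array set 5 of the 6 were called higher and none lower, against 23.2% of all genes called higher and 12.2% called lower. Each knockout array lay above every control array for 4 of the 6 (Acta2, Actg2, Cnn1 and Cnn2), against 10.8% of all genes. The median log2 difference of the 6 was 0.79, and that of all tested genes was 0.08. In whole-heart RNA, more cells of a type and more RNA per cell cannot be told apart.

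Acta2 read 2802, 2760, 4517, 3413 and 4738 in knockout hearts at 4 weeks, against 1816, 1392 and 2128 in control hearts. The lowest knockout heart lay above the highest control heart. The means were 3646 ± 936 (SD, n = 5) in knockout and 1779 ± 370 (SD, n = 3) in control hearts, a log2 difference of 1.01 ± 0.19 (adjusted p = 0.00342). Blocked by array set it was 1.03 ± 0.14 (adjusted p = 4.36e-05). It was 0.61 within set 1, which holds 1 control array here, and 1.27 within set 2 (adjusted p = 0.0001). Acta2 was the member whose call held within set 2 and under every alternative that used both sets in this comparison.

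Cnn1 showed the largest fold among the 6. Its probe set carries the suffix s in its name, for probes that several transcripts can share. The part of other transcripts in the Cnn1 value was not tested. Cnn1 read 759.7, 480.0, 792.0, 1456 and 900.9 in knockout hearts and 444.2, 265.1 and 209.0 in control hearts at 4 weeks. The groups did not overlap, but the lowest knockout heart and the highest control heart, both of set 1, were close. The log2 difference was 1.45 ± 0.33 (adjusted p = 0.0103), and 1.44 ± 0.30 blocked by array set (adjusted p = 0.00141). Within set 2 it was 2.03 (adjusted p = 4.73e-05), and within set 1, which holds 1 control array here, it was 0.43. Without control 4 wk replicate 2 or control 4 wk replicate 3 the call over all arrays was lost (adjusted p = 0.0562 and 0.0684).

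Cnn2, the broadly expressed calponin, read 348.4, 316.1, 363.1, 408.0 and 395.2 in knockout hearts against 280.0, 159.0 and 217.1 in control hearts at 4 weeks. All 5 knockout hearts were above all 3 control hearts, by a smaller margin than for Acta2. The log2 difference was 0.73 ± 0.22 (adjusted p = 0.0431), and 0.74 ± 0.19 blocked by array set (adjusted p = 0.00549). It was 0.23 within set 1, which holds 1 control array here, and 1.00 within set 2 (adjusted p = 0.00189). The unblocked call sat near the threshold: it was lost after quantile normalization (0.62, adjusted p = 0.132) and without any 1 of 6 of the 8 arrays of this comparison.

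Tagln split by array set. It read 465.0, 476.3, 1198, 926.9 and 699.4 in knockout hearts at 4 weeks, against 530.3, 323.0 and 330.0 in control hearts. The 3 knockout hearts of set 2 lay above all controls, whereas the 2 knockout hearts of set 1 lay below the set 1 control. The log2 difference of 0.85 ± 0.33 did not pass the test (adjusted p = 0.124). Blocked by array set it was 0.88 ± 0.25 and was called (adjusted p = 0.012). Within set 2 it was 1.45 (adjusted p = 0.000333) and within set 1, which holds 1 control array here, it was -0.17. Acta2, Cnn1, Cnn2 and Tagln all had the smaller value in set 1, and the difference between the sets was not tested. The control of set 1 at 4 weeks was marked female and those of set 2 male. A difference between the sets therefore cannot be told apart from one of inferred sex.

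Actg2 moved little. It read 3645, 3668, 3676, 4024 and 3512 in knockout hearts and 3049, 3017 and 3277 in control hearts at 4 weeks. The groups did not overlap, yet the log2 difference was only 0.25 ± 0.08 (adjusted p = 0.0605), and 0.25 ± 0.07 blocked by array set (adjusted p = 0.0116). After quantile normalization it was 0.21 (adjusted p = 0.325). The probe set carries the suffix f in its name, which on these arrays marks probes shared by a sequence family, so reads of other actin transcripts cannot be separated from Actg2 and its value is uncertain. Of the heart muscle actins on the same arrays, Acta1 ranged from 7631 to 9176 in knockout and 4292 to 6187 in control hearts at 4 weeks, and Actc1, also a probe set with the suffix f, from 9103 to 11104 and 9005 to 9901. The part of these transcripts in the Actg2 value was not tested.

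Myh11 read 279.2, 314.8, 393.6, 287.7 and 232.0 in knockout hearts and 455.2, 337.5 and 318.6 in control hearts at 4 weeks. The groups overlapped and the lowest values were in knockout hearts. The log2 difference was -0.29 ± 0.18 (adjusted p = 0.392), and -0.28 ± 0.16 blocked by array set (adjusted p = 0.186). Within set 1, which holds 1 control array here, it was -0.59, and within set 2 it was -0.13 (adjusted p = 0.663). With array set and inferred sex both as blocks it was -0.41 (adjusted p = 0.0529). No alternative gave Myh11 a positive difference at 4 weeks. In that last fit the 5 other members were called higher, with adjusted p of 0.0375 for Tagln and 0.0185 or less for the others.

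**Figure D2:**
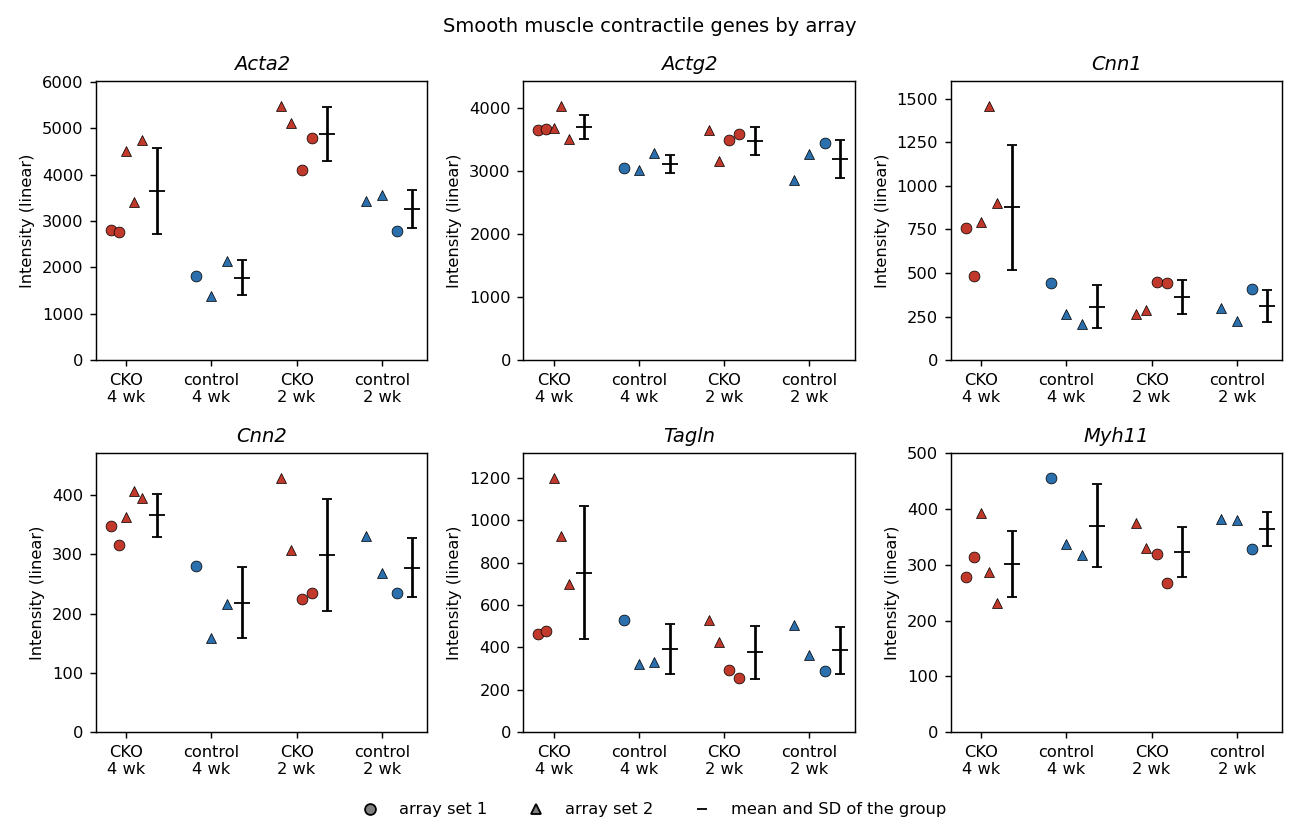
Intensity (linear scale) of the 6 genes on each of the 15 arrays, knockout (red) and control (blue), at 4 weeks and at 2 weeks, with circles for array set 1, triangles for set 2 and black bars for the mean and SD. Acta2 separates knockout from control at both ages, Actg2 (by a small difference), Cnn1 and Cnn2 at 4 weeks, Tagln at 4 weeks in set 2, and Myh11 at neither age.

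**Figure D3:**
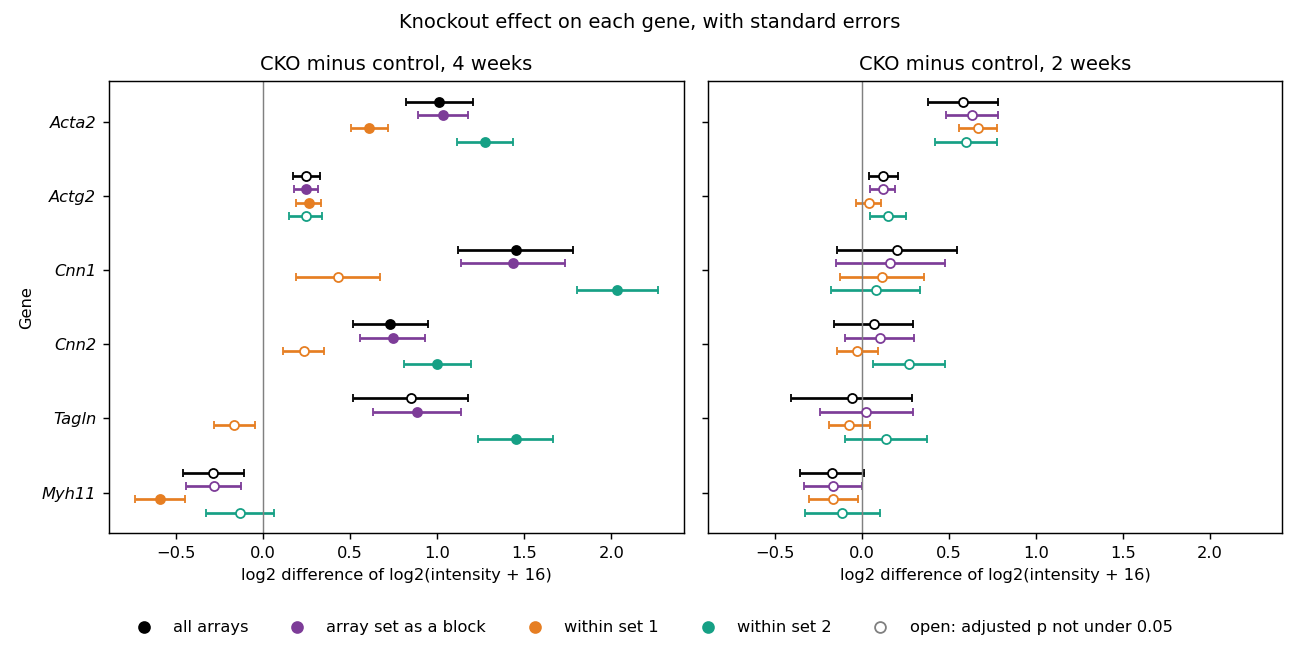
Log2 difference of knockout minus control with its standard error for each gene at 4 weeks (left) and at 2 weeks (right), over all arrays, blocked by array set and within each set. Filled points have an adjusted p under 0.05; at 4 weeks Cnn1 stands at 2.03 within set 2 and 0.43 within set 1, and at 2 weeks no point is filled.

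At 2 weeks none of the 6 genes was called by limma, against 0.0202% of all tested genes, nor when blocked by array set, against 0.0808%. Acta2 was the 1 gene of the 6 with an unadjusted p under 0.05 in limma. Acta2 read 5471, 5120, 4096 and 4792 in knockout hearts against 3423, 3558 and 2786 in control hearts, and every knockout heart was above every control heart. This held for 1 of the 6 genes, against 1.84% of all genes. The means were 4870 ± 586 (SD, n = 4) in knockout and 3256 ± 412 (SD, n = 3) in control hearts. The log2 difference was 0.58 ± 0.20 (adjusted p = 1), and 0.63 ± 0.15 blocked by array set (adjusted p = 0.21). It was 0.67 within set 1 and 0.60 within set 2, neither called.

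The calponins and transgelin differed between the groups at 2 weeks by less than a standard error. Cnn1 read 265.0, 287.5, 449.3 and 442.0 in knockout hearts and 298.6, 227.0 and 410.4 in control hearts. In both groups the higher Cnn1 values were those of set 1. Its log2 difference was 0.20 ± 0.34, and that of Cnn2 was 0.07 ± 0.23. Tagln read 531.2, 424.6, 292.6 and 256.5 in knockout hearts and 507.3, 365.0 and 288.7 in control hearts, a difference of -0.06 ± 0.35, which was 0.03 ± 0.27 with the block. Here the lower Tagln values were those of set 1. Actg2 differed by 0.12 ± 0.08 and Myh11 by -0.17 ± 0.18 (adjusted p = 1 for all 5 genes). The median of the 6 was 0.10, against 0.04 for all tested genes.

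Whether the knockout effect itself differed between 4 and 2 weeks was tested as an interaction. None of the 6 genes was called by limma, against 1.56% of all genes, nor when blocked by array set, against 12.4%. Cnn1 was the 1 gene with an unadjusted p under 0.05 without the block. The effect at 4 weeks minus that at 2 weeks was 1.249 ± 0.48 for Cnn1 (adjusted p = 0.324) and 0.91 ± 0.48 for Tagln (adjusted p = 0.602). It was 0.66 ± 0.31 for Cnn2, 0.43 ± 0.28 for Acta2, 0.13 ± 0.12 for Actg2 and -0.12 ± 0.25 for Myh11. Blocked by array set the Cnn1 value was 1.27 ± 0.43 (adjusted p = 0.0683). Within set 2 it was 1.95 for Cnn1 (adjusted p = 0.00516) and 1.31 for Tagln (adjusted p = 0.0272), and within set 1 it was 0.32 and -0.10. The rises of Cnn1 and Cnn2, called at 4 weeks and not at 2 weeks, are therefore not shown to differ between the ages over all arrays.

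Between 2 and 4 weeks the 6 genes took different courses. In control hearts Acta2 averaged 1779 ± 370 (SD, n = 3) at 4 weeks and 3256 ± 412 (SD, n = 3) at 2 weeks, with no overlap between the ages. This was so in the lower direction for 1 of the 6 genes, against 5.21% of all genes. Its log2 difference of -0.88 ± 0.22 missed the threshold (adjusted p = 0.0926) and passed it blocked by array set (-0.88 ± 0.16, adjusted p = 0.0033, against 3.05% of all genes called lower) and after quantile normalization (adjusted p = 0.0272). Without the block limma called none of the 6, against 0.727% of all genes, and Acta2 was the 1 gene with an unadjusted p under 0.05. The other 5 genes differed by -0.34 (Cnn2) to 0.03 (Tagln) in control hearts.

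In knockout hearts 1 of the 6 genes, Cnn1, was called higher at 4 than at 2 weeks, against 3.76% of all genes. Cnn1 averaged 877.7 ± 359 (SD, n = 5) at 4 weeks and 360.9 ± 98.3 (SD, n = 4) at 2 weeks, a rise of 1.19 ± 0.30 (adjusted p = 0.0302), and it was the 1 member with no overlap, against 5.39% of all genes in that direction. This call was lost without any 1 of 5 of the 9 knockout arrays (adjusted p up to 0.0881) and within set 1 (0.43, adjusted p = 0.172). Tagln averaged 753.1 ± 312 (SD, n = 5) at 4 weeks and 376.2 ± 126 (SD, n = 4) at 2 weeks, a difference of 0.93 ± 0.30 (adjusted p = 0.09). Acta2 averaged 3646 ± 936 (SD, n = 5) at 4 weeks and 4870 ± 586 (SD, n = 4) at 2 weeks, a difference of -0.45 ± 0.18 (adjusted p = 0.189). Blocked by array set 3 were called, Cnn1 (1.22 ± 0.27) and Tagln (0.88 ± 0.23) higher and Acta2 (-0.48 ± 0.13) lower, against 14.3% of all genes called higher and 10.8% called lower. These age comparisons use the same arrays as the knockout comparisons, so the values of a gene in both are not independent.

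The genes that work with these 6 were read from lists chosen by function. Of 18 tested partners of the smooth muscle contractile apparatus, 6 rose and none fell at 4 weeks, with a median of 0.39, against 6.59% of all genes called higher. Among them were the LIM protein gene Csrp1 (1.70 ± 0.33, adjusted p = 0.00352), the tropomyosin gene Tpm4 (0.91 ± 0.20) and Tgfb1i1, which encodes the focal adhesion protein Hic-5 (0.64 ± 0.16, adjusted p = 0.0173). Myl9, the regulatory light chain of smooth muscle myosin, differed by 0.86 ± 0.40 (adjusted p = 0.223), by 0.14 within set 1 and by 1.35 within set 2. Mylk, the kinase that phosphorylates that light chain, differed by 0.03 ± 0.16 (adjusted p = 0.962). Blocked by array set 10 of the 18 were called higher, Myl9 included (0.92, adjusted p = 0.00111), against 23.2% of all genes. At 2 weeks none of the 18 was called, against 0.0202% of all genes.

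Close relatives of the 6 genes went both ways. Of 11 tested paralogs 1 rose and 2 fell at 4 weeks, against 6.59% of all genes called higher and 4.61% called lower. Under the array-set block 5 were higher and 2 lower, against 23.2% and 12.2%. The skeletal actin gene Acta1 rose (0.65 ± 0.11), and the nonmuscle myosin gene Myh14 (-0.92 ± 0.15) and the cardiac myosin gene Myh6 (-0.39 ± 0.07) fell. The acidic calponin gene Cnn3 differed by 0.99 ± 0.32 (adjusted p = 0.0624) and Tagln2, a transgelin of nonmuscle cells, by 0.92 ± 0.32 (adjusted p = 0.086). Both were called higher blocked by array set (1.04, adjusted p = 9.02e-05, and 0.97, adjusted p = 0.000137), as were the nonmuscle myosin gene Myh9 (0.46, adjusted p = 0.00595) and the cytoplasmic actin gene Actg1 (0.30, adjusted p = 0.0172). Cnn3 differed by 0.94 within set 1 and 1.06 within set 2, and Tagln2 by 0.90 and 0.97. At 2 weeks 1 of the 11 was called, Acta1, which rose by 1.36 ± 0.12, against 0.0202% of all genes. At that age Cnn3 differed by 0.02 ± 0.33 and Tagln2 by 0.04 ± 0.34. For the difference between the ages 1 of the 11 was called without the block, Acta1 (-0.72 ± 0.16, adjusted p = 0.0386), against 1.56% of all genes. Blocked by array set 2 were called higher and 3 lower, against 12.4% of all genes called in either direction. The higher ones were Cnn3 (0.89, adjusted p = 0.0175) and Tagln2 (0.81, adjusted p = 0.0251), not called without the block (adjusted p = 0.546 and 0.602). The lower ones were Acta1 (-0.72), Myh14 (-0.61) and Myh6 (-0.32).

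Of 13 tested genes of the serum response factor, myocardin and SMAD group, 1 rose and 1 fell at 4 weeks, with a median of 0.12, against 6.59% of all genes called higher and 4.61% called lower. When blocked by array set, 2 rose and 2 fell, against 23.2% and 12.2%. Smad7, the inhibitory SMAD that TGF-beta signalling induces, rose by 0.71 ± 0.18 (adjusted p = 0.0204). Fhl2, a LIM protein of heart muscle that binds serum response factor, fell by 0.79 on the log2 scale (adjusted p = 1.43e-05). Mrtfa, a myocardin-related coactivator, differed by 0.12 ± 0.30 (adjusted p = 0.901). Srf, Myocd and Mrtfb were not analysed here. Of 10 tested TGF-beta and vasoactive ligands and receptors 5 rose and none fell, with a median of 0.68, against 6.59% of all genes called higher. Blocked by array set 6 rose, against 23.2%. They included the ligands Tgfb2 (3.27 ± 0.32) and Tgfb3 (2.42 ± 0.29) and the matricellular gene Ccn2 (1.87 ± 0.29). At 2 weeks none of these 23 genes was called, against 0.0202% of all genes.

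Markers of the cells that could carry the 6 transcripts moved as follows at 4 weeks. Of 14 tested markers of fibroblasts and activated fibroblasts 12 rose and none fell (median 1.17), against 6.59% of all genes called higher, and blocked by array set all 14 rose, against 23.2%. Among them were the proteoglycan genes Lum (1.01 ± 0.11) and Dcn (0.51 ± 0.06) and the collagen gene Col1a1 (1.68 ± 0.22), and Postn, of activated fibroblasts, rose by 3.03 ± 0.54. The summed intensity of the 20 fibroblast probe sets was 28180 to 37990 in knockout and 13063 to 14292 in control hearts at 4 weeks, and 18960 to 30747 and 18436 to 25596 at 2 weeks. S100a4 and Cdh11 were at the floor on some arrays. Of 6 elastic vessel wall genes 5 rose with and without the block (median 1.90), against 23.2% and 6.59% of all genes called higher. Among them were Mfap5 (2.36 ± 0.24), Eln (2.83 ± 0.37) and Fbln2 (1.43 ± 0.20), and Mfap4, which was at the floor on some arrays. The sum of the 6 was 7784 to 10713 in knockout and 2146 to 3419 in control hearts at 4 weeks, and 3879 to 7214 and 4056 to 6683 at 2 weeks.

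Without the block 1 of 6 pericyte markers and 1 of 11 endothelial markers were called, against 6.59% of all genes called higher and 4.61% called lower. Of 6 tested pericyte markers none rose and 1 fell (median 0.19): Abcc9, a potassium channel subunit that heart muscle cells also express, differed by -1.90 ± 0.23. With the array-set block 1 pericyte marker, Mcam, rose (0.74, adjusted p = 0.012) and Abcc9 fell. Rgs5 differed by 0.09 ± 0.12 and Pdgfrb by 0.29 ± 0.35. The sum of the 8 pericyte probe sets was 3388 to 4247 in knockout and 3917 to 4709 in control hearts at 4 weeks. Of 11 endothelial markers 1, Eng (0.54 ± 0.14), rose, and the list median of 0.06 was -0.04 after quantile normalization, with sums of the 12 probe sets of 8251 to 12352 in knockout and 7081 to 9841 in control hearts. In the blocked fit 4 of the 11 endothelial markers rose (Eng, Vwf, Cd34 and Ptprb) and Tie1 fell, against 23.2% and 12.2% of all genes. Of 9 tested heart muscle markers 5 fell and none rose (median -0.30), against 4.61% of all genes called lower, and blocked by array set 6 fell. Among them were the troponin I gene Tnni3 (-0.75 ± 0.06), the myoglobin gene Mb (-0.52 ± 0.05) and the calcium release channel gene Ryr2 (-1.19 ± 0.17). The list had sums of 60762 to 64964 in knockout and 74255 to 77949 in control hearts. At 2 weeks no gene of these 5 lists was called, against 0.0202% of all genes. Of the other lists, with macrophage, lymphocyte, erythroid, adipocyte, lung and epicardial markers, none had a called gene at 4 weeks without the block. The block by array set called the lymphocyte marker Cd79b (0.52, adjusted p = 0.00433) and the erythroid marker Hba-a1 (0.44, adjusted p = 0.0204) higher. Of 5 tested atrial and conduction markers 1 rose, Nppa (2.00 ± 0.33), and 2 fell, Stard10 (-0.89 ± 0.15) and Gja5 (-0.67 ± 0.19), with the same numbers under the block. Of 4 tested skeletal muscle markers, from 9 listed, 1 rose, Myl1 (2.85 ± 0.56), and 3 rose under the block. The sum of the 9 skeletal muscle probe sets was 6956 to 8213 in knockout and 1932.5 to 2790 in control hearts at 4 weeks, with Myh1 at the floor on some arrays. For all these lists the shares of all genes were 6.59% called higher and 4.61% called lower. Under the block they were 23.2% and 12.2%. The part of any of these cell types in the values of the 6 genes was not tested.

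**Figure D4:**
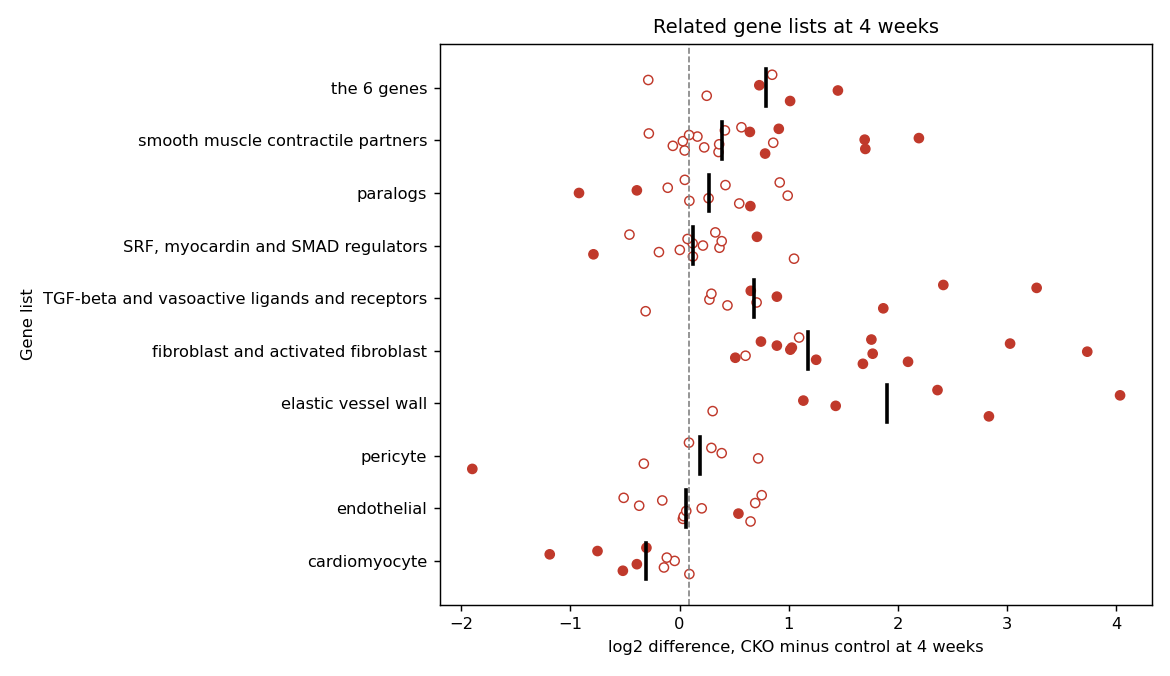
Log2 difference of knockout minus control at 4 weeks for each tested gene of 10 lists, with filled points for an adjusted p under 0.05, a black bar for the list median and a dashed line for the median of all tested genes (0.08). The 6 genes have a median of 0.79, the fibroblast list 1.17, the pericyte list 0.19 and the heart muscle list -0.30.

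Across the 15 arrays the 6 genes did not vary as one block. With each value centred on its array set, Pearson's r between members ran over 15 pairs from -0.47 (Actg2 with Myh11) to 0.80 (Cnn1 with Tagln, Spearman's rho 0.79). Cnn2 and Tagln gave r = 0.76 (rho 0.81), while Myh11 gave r = -0.44 with Cnn1, -0.27 with Acta2 and 0.07 with Tagln. The arrays share the knockout and age groups, so these r describe the groups as much as the hearts. After group and set means were both removed, Cnn1 with Tagln was 0.44 and Cnn2 with Tagln 0.68, and Tagln with Myh11 was 0.78. These values are descriptions with no test.

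The genes most like each member were ranked by the same set-centred r over 15 arrays among the 4944 other tested genes. Acta2 was followed most closely by Myl9 (r = 0.94, rho 0.90), by Dstn, which encodes the actin-severing protein destrin (r = 0.94, rho 0.83), and by the proteasome gene Psmc4 (r = 0.92, rho 0.84). Cnn1 was followed by Pnp (r = 0.96), Atg13 (r = 0.96) and Efhd2 (r = 0.95), and Cnn2 by Hmgn1 (r = 0.95), Prelid1 (r = 0.95) and Sh3bgrl (r = 0.94). Tagln was followed by Prr13 (r = 0.92), Gnpda1 (r = 0.91) and Dio2 (r = 0.90), and Actg2 by Rtraf (r = 0.89), Ipo7 (r = 0.88) and Hnrnpll (r = 0.87). Myh11 had the lowest likeness to its nearest genes, Htr7 (r = 0.80, rho 0.59), Mmp12 (r = 0.79) and Oxt (r = 0.76). The mean of the 6 was followed by Snrpb2 (r = 0.97), Islr (r = 0.96) and Rab31 (r = 0.95). Of the genes named here Efhd2 (1.14, adjusted p = 0.00424) and Rab31 (1.85, adjusted p = 0.000334) were among those called higher at 4 weeks.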

How the data were processed

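RNA of 15 mouse heart samples, extracted with Trizol and column purification per the labels, was measured on one-colour arrays. The authors deposited linear intensities for every probe set of each array, with 0.95 as the lowest value. The sources used here do not give the authors' software, background correction or scaling. The deposited scaling was kept because the highest array median was 1.248 times the lowest, inside a limit of 1.25. Values were taken as log2(intensity + 16). Of 12422 probe sets 10833 had 1 gene symbol, 396 several and 1193 none. Symbols were updated through gene IDs of a GRCm38.p6 table. Where a gene had several single-symbol probe sets the one of highest mean was taken, which gave 8251 genes, and the dimmest 40% were left out, which left 4950.

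In R 4.3.3, limma 3.58.1 was fitted to all 15 arrays with a mean for each group and a trend of the spread with intensity. Its moderated tests were two-sided, with Benjamini-Hochberg adjusted p-values, for 5 comparisons. The 2 Mnat1 probe sets were compared in the same way, and neither was called at either age. At 4 weeks they differed by 0.53 ± 0.47 (adjusted p = 0.726) and -0.03 ± 0.27 (adjusted p = 0.994) on the log2 scale. At 2 weeks they differed by 0.16 ± 0.49 and -0.47 ± 0.28. Alternatives were quantile normalization, median scaling, pseudocounts of 1 and 64, no filter, all probe sets, blocks for array set, inferred sex and sample number, each array set alone, only the groups compared, and leaving out each array. For arrays, their number limits the precision. Equal values above the floor made up at most 0.0322% of probe sets between 2 arrays.

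Members, lists and tests were chosen with earlier results of these data known. Named were all 6 members in every comparison, the called genes with the 3 smallest p of a list at 4 weeks, a few regulators, partners and markers whatever their values, and the 3 genes most like each member, of which the text names some. The array sets come from average-linkage clustering on the correlation of all probe sets. Sample numbers in the titles are shared by knockout and control samples. The deviations of same-numbered arrays from their group means correlated at 0.814, 0.668 and 0.889 at 2 weeks, where all 3 pairs share an array set, and at 0.827, -0.553 and 0.583 at 4 weeks. Only the pair at -0.553 had its arrays in different array sets. A rule that every pair exceed 0.1 was met at 2 weeks and not at 4 weeks. The deviations keep the difference between the array sets, so this check cannot tell pairing from a shared set, and no pairing is taken from it.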

Additional observations from a re-analysis of the deposited data

How the results depend on the processing

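The number of the 6 genes called at 4 weeks, 3, was 5 blocked by array set and blocked by array set plus inferred sex, and 1 to 3 when each array was left out, with 1 without control 4 wk replicate 2 or control 4 wk replicate 3. Set 1 holds 1 control array at 4 weeks, so no count is given for it. There the log2 differences were 0.61 for Acta2, 0.43 for Cnn1, 0.26 for Actg2 and 0.23 for Cnn2. They were -0.17 for Tagln and -0.59 for Myh11. The number called was 4 within set 2, 4 with the array-set block and quantile normalization, 3 with either other pseudocount, and 2 in the 6 remaining alternatives. In these 6 the Cnn2 call was lost: quantile normalization (adjusted p = 0.132), median scaling (0.159), no filter (0.058), all probe sets (0.0699), only the groups compared (0.0544) and the replicate block (0.0993). At 2 weeks it stayed 0 under every alternative run. For the age difference of the knockout effect it was 2 within set 2 and otherwise 0. For control hearts at 4 against 2 weeks it was 1, Acta2, after quantile normalization, blocked by array set (alone, with quantile normalization or with inferred sex), and within set 2, and otherwise 0. For knockout hearts at 4 against 2 weeks, 1 in the fit reported, it was 3 blocked by array set, with that block and quantile normalization, and within set 1, and 2 within set 2 and with array set and inferred sex as blocks. It was 0 with the replicate block and with only the groups compared, and 0 to 1 when each knockout array was left out (0 without CKO 4 wk replicate 3, 4 or 5 or CKO 2 wk replicate 1 or 2). The cause of these moves was not tested. The replicate block, by sample number, left none of the 6 genes called at 2 weeks, and whether the numbers are pairs is not known.

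Reversed signs were confined to values that were not called in the fit reported. Within set 1 the sign turned for Tagln at 4 weeks (-0.17) and for Cnn2 at 2 weeks (-0.0267). In the age difference of the knockout effect it turned there for Acta2 (-0.056) and Tagln (-0.10), in control hearts at 4 against 2 weeks for Cnn1 (0.11) and Cnn2 (0.24), and in knockout hearts at 4 against 2 weeks for Myh11 (0.0182). Within set 2 it turned in control hearts for Actg2 (0.0396), Myh11 (-0.21) and Tagln (-0.38), and at 2 weeks for Tagln (0.14). Tagln at 2 weeks also turned blocked by array set (0.0263) and with inferred sex added (0.0663), and Actg2 in control hearts after median scaling (0.0009). Leaving out 1 array turned the sign for Cnn2 (-0.11 to 0.19) and Tagln (-0.24 to 0.15) at 2 weeks. It did so for Actg2 (-0.11 to 0.0248), Cnn1 (-0.35 to 0.17), Myh11 (-0.14 to 0.11) and Tagln (-0.20 to 0.23) in control hearts at 4 against 2 weeks, and for Myh11 in the age difference (-0.21 to 0.0354). At 4 weeks Cnn2 lost its call in 6 of 8 such fits and Cnn1 in 2, while Acta2 lost none.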
